A study of Rattus norvegicus with 12 samples.

Results

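The olfactory receptor probes of a rat expression array were followed in cultures of cerebellar neurons. The array carried 1211 probes with a gene name of the form Olr and a number, for 1170 genes, among 30367 gene probes in all. Probes were selected on their signal: 7 or more of the 12 arrays had to show a quantile-normalised log2 signal over the 20th percentile of that array, which 250 probes for 248 genes met. Of these, 247 probes for 245 genes had an array description that names an olfactory receptor, and they are called the members here. The level of the signal chose the members, so their levels are a description. The rule itself does not use the difference between exposed and control arrays, but this group of genes was taken up with earlier results of these data known.

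The cultures came from the cerebellum of 1-day-old neonatal Sprague-Dawley rats and were taken at 16 days in vitro. Control cultures (6 arrays) received the solvent dimethyl sulfoxide, and ACE cultures (6 arrays) received 1 µM acetamiprid (ACE), a neonicotinoid insecticide, in the same solvent from 2 days in vitro. Each replicate number stood once in each group and marked cultures of 1 lot of cells, so that control versus ACE (CvA) was compared over 6 pairs. The cultures were enriched in neurons but mixed: 3 of the 4 neuron markers with a probe, and every marker probed for granule cells, Purkinje cells, astrocytes, oligodendrocytes and microglia, were well above background on all 12 arrays. Fewer cells of a type and less RNA per cell cannot be told apart in such samples.

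Olfactory receptors are G protein-coupled receptors that detect odorants in the cilia of olfactory sensory neurons, and their genes form the largest gene family of rodents. They lie in large clusters on many chromosomes, most have their coding sequence in a single exon, and close paralogs can be nearly identical in sequence. Receptor transcripts have also been found at low levels in tissues outside the nose, the brain among them, where most of their functions are unknown.

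Most olfactory receptor probes gave little or no signal. Of the 1203 probes with an olfactory receptor description, 407 were never well above background, which the extraction software calls for each spot, and 72 (5.99%) were so on all 12 arrays. For all 30367 gene probes this last share was 66.4%. The filter on the 20th percentile passed 20.5% of the olfactory receptor probes against 78.4% of all probes. In the other chemoreceptor families it passed 24 of 96 vomeronasal type 1 receptor probes (Vom1r), 26 of 102 vomeronasal type 2 receptor probes (Vom2r), 3 of 17 trace amine-associated receptor probes (Taar) and 4 of 33 bitter taste receptor probes (Tas2r). These shares ran from 12.1% to 25.5%. Of the 4 probes for sweet and umami taste receptors (Tas1r), 2 passed. With the 50th percentile in place of the 20th, 10 olfactory receptor probes passed.

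**Figure D1:**
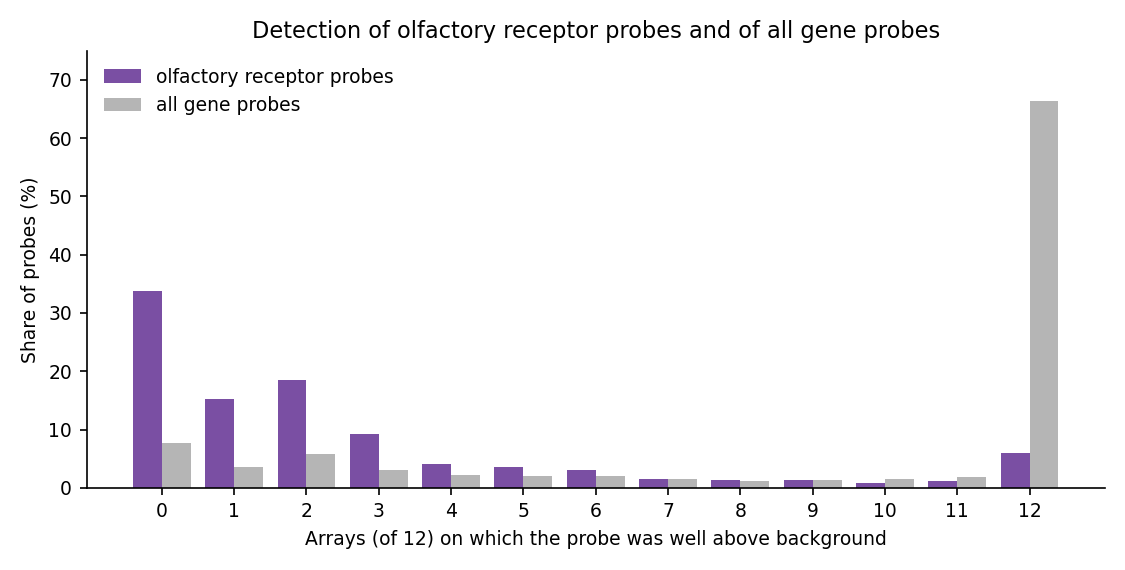
Share of probes (vertical axis, percent) by the number of arrays, of 12, on which they were well above background, for the 1203 olfactory receptor probes and all 30367 gene probes. Olfactory receptor probes were most often detected on no array (33.8%), whereas 66.4% of all probes were detected on all 12.

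The other 3 of the 250 probes that passed the rule were set apart by their description. The name Olr1 belongs in the rat to the oxidised low density lipoprotein receptor, a lectin-like scavenger receptor on endothelial cells and macrophages, and its probe was well above background on all 12 arrays with a mean log2 signal of 7.68. The probes of Olr1572 (mean log2 signal 8.97) and Olr1088 (3.69) were described only as uncharacterised proteins. The ACE minus control difference of these probes was 0.04, -0.11 and -0.47 in log2, and their limma p-values were 0.790, 0.179 and 0.164 before adjustment.

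The members had mean log2 signals between 3.01 and 10.4, with a median of 4.52. Of the 247 members, 161 lay below 5 and 6 lay above 8, a level that 59.1% of all probes tested exceeded. The 10 members with the highest mean signal are shown with their 60-base probes, since a probe sequence defines what the signal could come from. Positions are those of the array annotation (rat genome build rn4, RGSC 3.4), and exon or intron was not assigned here. Capitals mark the longest run of at least 14 bases that the probe shares with a probe of another gene; for Olr1375, Olr325 and Olr714 the other probe holds the reverse complement of that run.
Olr1439, chr10:44704257-44704316, plus strand: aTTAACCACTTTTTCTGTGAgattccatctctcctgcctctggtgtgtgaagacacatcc
Olr1375, chr10:12520296-12520355, minus strand: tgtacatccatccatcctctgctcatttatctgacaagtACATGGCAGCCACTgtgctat
Olr3, chr1:65743839-65743898, plus strand: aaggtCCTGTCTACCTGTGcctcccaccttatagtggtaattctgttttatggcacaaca
Olr1l, chr1:64221961-64222020, plus strand: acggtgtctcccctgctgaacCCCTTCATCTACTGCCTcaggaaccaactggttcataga
Olr325, chr1:214964030-214964089, minus strand: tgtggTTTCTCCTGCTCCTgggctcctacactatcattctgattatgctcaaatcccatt
Olr567, chr3:71196637-71196696, minus strand: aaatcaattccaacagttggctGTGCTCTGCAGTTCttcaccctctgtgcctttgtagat
Olr714, chr3:74123752-74123811, minus strand: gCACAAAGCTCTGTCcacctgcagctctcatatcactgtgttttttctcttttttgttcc
Olr390, chr2:192189346-192189405, minus strand: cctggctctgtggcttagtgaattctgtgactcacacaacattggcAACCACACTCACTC
Olr1684, chr20:351591-351650, plus strand: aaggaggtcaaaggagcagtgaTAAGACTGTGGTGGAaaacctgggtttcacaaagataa
Olr775, chr3:97425055-97425114, minus strand: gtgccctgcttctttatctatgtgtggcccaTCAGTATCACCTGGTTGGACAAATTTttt
The shared runs were short next to the probe length: 26 bases with Olr769 for Olr775, 19 with Olr1437 for Olr1439, 17 with Olr224 for Olr1l, and 14 or 15 for the other 7. Probes were compared only with other array probes, not with transcripts or the genome. A short or absent run therefore does not show that a probe is specific. Over all members, 18 of 247 shared a run of at least 25 bases with a probe of another gene (7.29%), against 10.9% of the olfactory receptor probes that failed the rule. Such probes may take up the transcript of the other gene, as for Olr1247 and Olr1248, whose probes share 48 bases, and their values are uncertain for that reason. RefSeq (assembly GRCr8) now lists Olr1439 as Or2ak6, Olr1375 as Or1f26, Olr3 as Or10am5, Olr325 as Or4d6 and Olr567 as Or8w1b.

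All 10 probes were well above background on every array. Signals of different probes depend on each probe's own binding, so they are not compared as transcript levels. Olr1439 (chromosome 10) had log2 signals from 10.22 to 11.03 on control arrays (median 10.37) and from 10.03 to 10.94 on ACE arrays (median 10.18). Olr1375, also on chromosome 10, ran from 9.80 to 10.26 (median 10.10) in control and from 9.57 to 10.49 (median 10.11) in ACE. The groups overlapped for both. Olr3 (chromosome 1) spanned 8.72 to 9.98 on control arrays (median 9.34) and 8.43 to 9.88 on ACE arrays (median 9.24), and Olr325 (chromosome 1) spanned 8.39 to 9.92 (median 8.94) and 8.24 to 9.86 (median 8.60). Olr567, on chromosome 3, spanned 7.88 to 9.76 (median 7.98) and 7.51 to 9.60 (median 7.84). In each of these 3 the highest value of both groups was the replicate 1 array, and pairs differed more than the arrays within a pair.

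**Figure D2:**
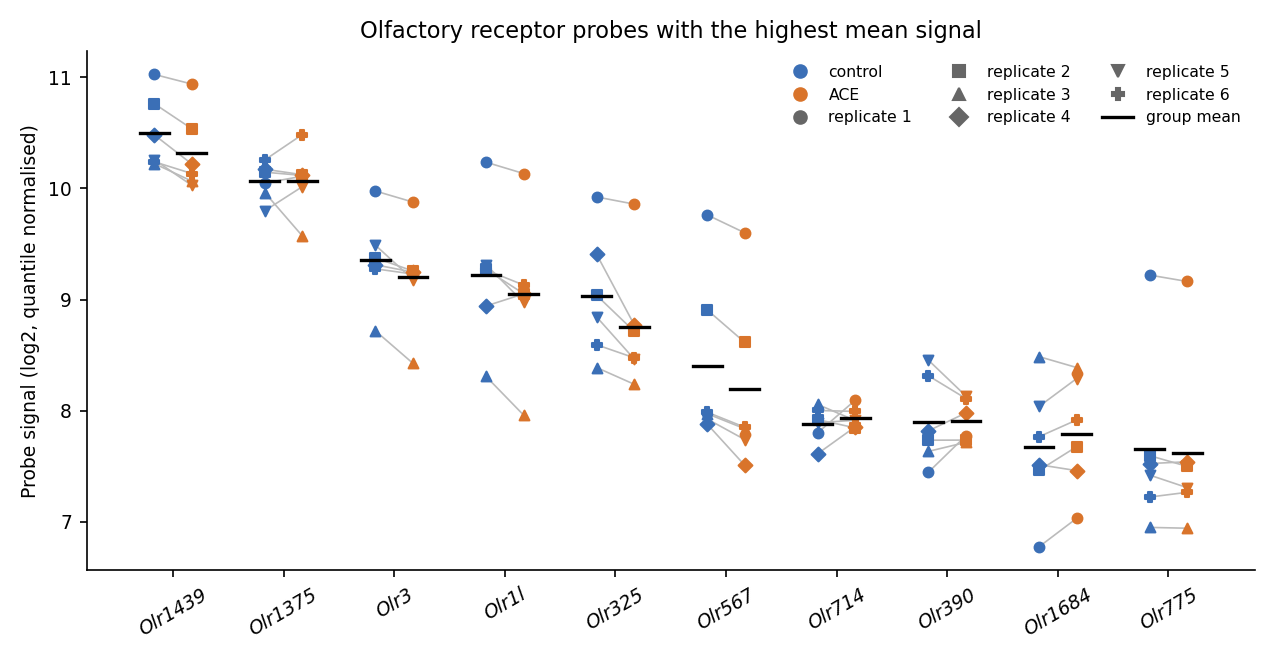
Quantile-normalised log2 signal (vertical axis) of the 10 members with the highest mean signal on each control and ACE array, with lines joining the arrays of a pair, symbols for the replicate and bars for group means. Olr1439 was lower on the ACE array in all 6 pairs, while Olr714 and Olr1684 had ACE means above the control means.

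Replicate 1 stood apart in the whole group of genes, as it did over all gene spots. Its 2 arrays were extracted with an earlier software version than the other 10, and 604 olfactory receptor probes on its control array and 552 on its ACE array were well above background, against 124 to 305 on the other arrays. Of all gene spots, 91.03% and 90.37% were well above background on these 2 arrays, against 75.36% to 84.69% on the other 10. Of the 241 members measured in all pairs, 172 had their highest pair mean in replicate 1, a count not given here for all probes. The median SD of the 6 pair means was 0.60 in log2 over the members and the median SD of the 6 pair differences 0.40, against 0.29 and 0.13 over all probes tested. Without replicate 1, 235 olfactory receptor probes passed the rule, and 72 remained the number well above background on every array.

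In CvA, members were more often lower than higher in ACE, by small amounts, and no single member passed an adjusted test. Of the 247 members, 62 had an unadjusted limma p below 0.05, 61 of them lower in ACE and 1 higher. Over all 23796 probes tested, 9.73% were lower and 6.90% were higher by the same rule (16.6% in either direction), so 24.7% of the members against 9.73% of all probes were lower. After Benjamini-Hochberg adjustment over all probes tested, 0 members and 0 probes in all (0%) passed 0.05, and the lowest adjusted p of a member was 0.141. The exact two-sided signed-rank test, which needs all 6 pairs to move the same way to reach 0.03125, gave 39 members lower and 1 higher, against 6.86% and 4.72% of all probes. Without the pairing, 0 members had an unadjusted limma p below 0.05, against 0.155% of all probes lower and 0.185% higher.

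The mean difference was below 0 for 185 of the 247 members (74.9%), against 52.2% of all probes tested. At least 1.5-fold lower in ACE were 17 members (6.88%, against 1.06% of all probes), and at least 1.5-fold higher were 5 (2.02%, against 0.664%), with no test of these counts. None of them was among the 72 members well above background on all 12 arrays, of which 0 differed by 1.5-fold in either direction. Without a filter, 6.15% of the 1203 olfactory receptor probes were at least 1.5-fold lower and 5.90% higher, against 2.28% and 1.97% of all probes. The median difference was -0.15 in log2 over the members and -0.0050 over all probes. By pair, the median member difference was -0.12, -0.15, -0.17, -0.17, -0.22 and -0.08 for replicates 1 to 6, so that it was negative in each of them, with a mean of -0.15 ± 0.05 (SD, n = 6). In a given pair, 59.1% to 73.7% of the members with a value in it (244 to 247) were lower in ACE, against 47.6% to 53.9% of all probes. Only the 3 pairs scanned on one day (replicates 4 to 6) gave a median of -0.14, and leaving out replicate 1 in the filter and in the fit gave -0.15.

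The filter needs a signal in most arrays, so the same values are given for other choices of probes. Among the 72 members well above background on all 12 arrays, 31 were lower at an unadjusted p below 0.05 and 0 were higher in the same fit, where 10.1% of all such probes were lower, and their median difference was -0.16. Of these 72, 58 (80.6%) had a mean difference below 0, against 52% of all probes well above background on all arrays. Without a filter, 72 of 1203 olfactory receptor probes were lower and 10 higher, against 7.28% and 5.26% of all probes, and the median difference was -0.05. The 956 olfactory receptor probes that failed the rule had a median of -0.04. The share lower without the filter (5.99%) was below the background, and among the failed probes 14 of 956 were lower and 9 higher.

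**Figure D3:**
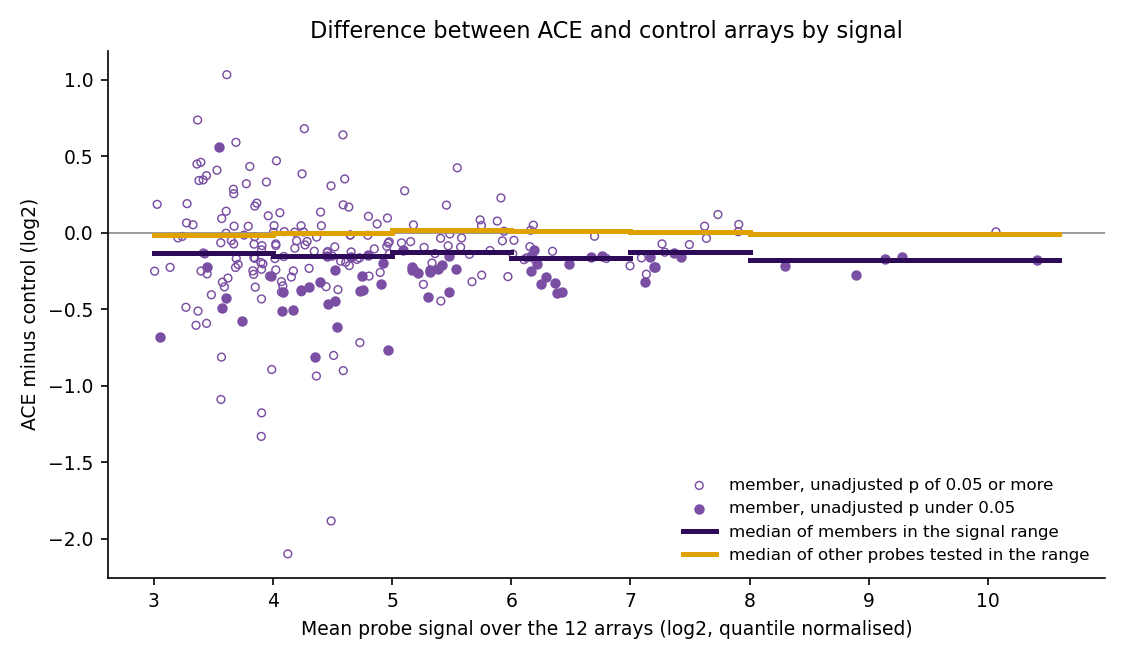
Difference between ACE and control (vertical axis, log2) of each of the 247 members against its mean log2 signal over the 12 arrays, with filled circles for an unadjusted limma p below 0.05 and lines for the median of members and of other probes in each signal range. The member median lay between -0.18 and -0.13 in all 6 ranges, while that of other probes lay between -0.01 and 0.02.

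The median difference changed little with the signal, while the share of members with a low p was larger at higher signal. Members with a mean log2 signal of 3 to 4 had a median difference of -0.13 (75 members), those of 5 to 6 of -0.13 (40 members), those of 6 to 7 of -0.17 (24 members) and those above 8 of -0.18 (6 members). Other probes tested had medians from -0.01 to 0.02 in the same ranges. From the lowest range to the highest, 6 of 75, 20 of 86, 12 of 40, 12 of 24, 6 of 16 and 5 of 6 members were lower at an unadjusted limma p below 0.05, against 5.53% to 10.8% of the other probes. The share of members with a difference below 0, at any p, was 65.3% in the lowest range, 91.7% in the range of 6 to 7 and 83.3% above 8, against 51.7%, 46.1% and 54.4% of the other probes. By base composition, the median was -0.13 for members with 35 to 40% G or C, -0.09 for 40 to 45% and -0.18 for 45% or more, against 0.03, 0.01 and -0.03 for other probes of the same composition.

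The median difference of the members was negative in each way of processing tried. Of the scalings, the shift to the 75th percentile gave -0.25, no scaling gave -0.15 and the deposited value table -0.14. Another background correction, normexp, with the same quantile normalisation gave -0.04. The medians of all probes tested were -0.03, 0.07, 0.0071 and -0.0042 in the same order. Over all probes, the shares lower and higher at an unadjusted p below 0.05 were 14.2% and 3.48% with the 75th percentile shift and 8.13% and 8.62% in the deposited table. They were 10.7% and 7.37% with a normexp background and 3.06% and 3.28% with no scaling. The members gave 86 lower and 1 higher with the 75th percentile shift, 58 lower and 1 higher in the deposited table, 43 lower and 1 higher with a normexp background, and 45 lower and 2 higher with no scaling.

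**Figure D4:**
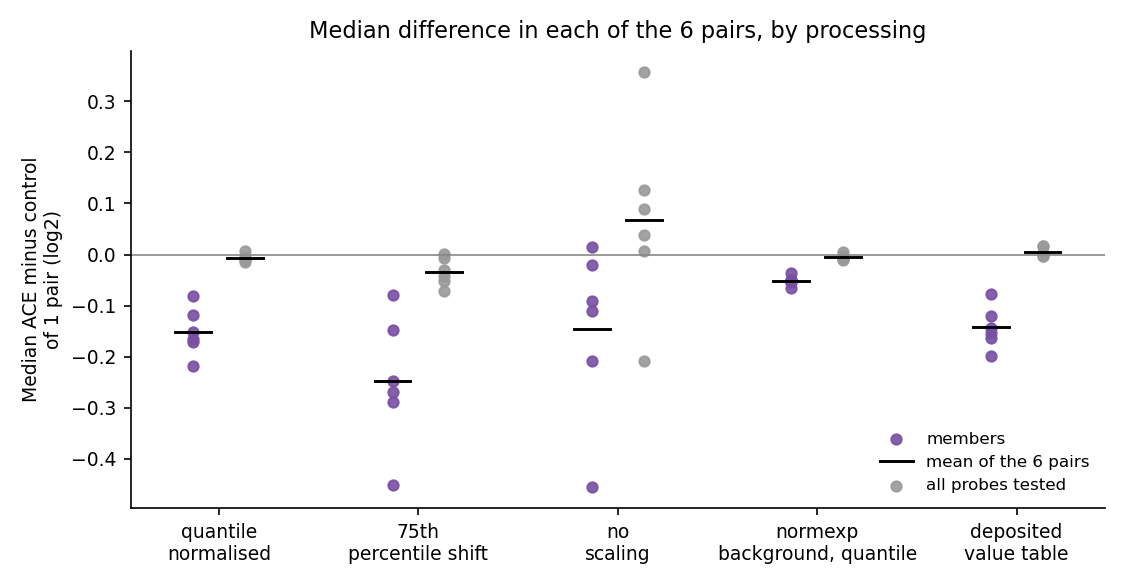
Median ACE minus control difference of the members and of all probes tested (vertical axis, log2) in each of the 6 pairs, for 5 ways of processing the arrays, with bars for the mean of the pairs. The members lay below all probes in each setting, from -0.05 with a normexp background to -0.25 with the 75th percentile shift.

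Some technical values differed between the groups as well. The control array held place 1 and the ACE array place 3 of the slide in every pair, so place and exposure cannot be told apart. The 75th percentile of the processed signal was 2814 ± 1054 (SD, n = 6) on control arrays and 2953 ± 872 (SD, n = 6) on ACE arrays. This percentile was higher on the ACE array in 5 of 6 pairs. The 153 negative control spots had a processed signal of 3.13 ± 0.48 (SD, n = 6) on control arrays and 2.88 ± 0.74 (SD, n = 6) on ACE arrays, and it was lower in 4 of 6 pairs. It was higher in ACE in replicate 1 (3.07 against 2.82) and replicate 6 (4.30 against 3.26), where the median member differences were -0.12 and -0.08, and lower in replicates 2 to 5, where they were -0.15 to -0.22. The 5 markers of skeletal muscle, all on the array and 4 of them well above background on every array, had a mean difference of -1.15 and were lower on average in 4 of 6 pairs, and their summed log2 level ranged from 8.67 to 14.8 in control and from 8.60 to 13.2 in ACE. The other lists of cell markers, for neurons, granule cells, Purkinje cells, astrocytes, oligodendrocytes and microglia, differed by -0.08 to 0.14, and that for olfactory sensory neurons by -0.14 (lower in 2 of 6 pairs). The part of these values in the member differences was not tested.

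The members named next had the largest differences among those with an unadjusted limma p below 0.05 and the same direction in all 6 pairs, which 38 of 247 members met for a lower and 1 for a higher value, against 5.74% and 3.77% of all probes tested. All had mean log2 signals under 5. Their probes are given in the same way, with the shared run in capitals, because several belong to close paralogs.
Olr991, chr7:6089953-6090012, plus strand: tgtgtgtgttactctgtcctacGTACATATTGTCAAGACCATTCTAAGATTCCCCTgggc
Olr1714, chr20:1102338-1102397, minus strand: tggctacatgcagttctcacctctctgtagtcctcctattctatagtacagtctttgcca
Olr1125, chr8:16973044-16973103, plus strand: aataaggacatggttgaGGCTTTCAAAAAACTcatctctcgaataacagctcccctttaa
Olr825, chr4:152758464-152758523, plus strand: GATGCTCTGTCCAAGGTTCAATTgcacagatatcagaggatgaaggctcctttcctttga
Olr1744, chr20:1461796-1461855, plus strand: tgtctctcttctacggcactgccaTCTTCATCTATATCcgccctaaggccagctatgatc
Olr728, chr3:74436623-74436682, plus strand: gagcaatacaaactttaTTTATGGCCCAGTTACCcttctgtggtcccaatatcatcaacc
Olr991, which RefSeq lists as the pseudogene Or6c202f, shared 34 bases with the probe of Olr916, and Olr825 (now Or6d13b) shared 23 with that of Olr826. Olr1714 had no run of 14 bases in common with any other gene's probe.

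Olr991 (chromosome 7) was the member that was higher. It had log2 signals from 2.39 to 4.50 on control arrays (median 3.30) and from 2.56 to 4.76 on ACE arrays (median 3.91), and its difference was 0.56 ± 0.15 (SE). The unadjusted limma p was 0.00729 and the adjusted p 0.180. The groups overlapped, and the spot was well above background on 1 control and 2 ACE arrays. With the normexp background the difference was 0.10.

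Olr1714 (chromosome 20) had the largest difference of the lower ones, -0.81 ± 0.27 (SE), with signals of 4.03 to 5.32 (median 4.80) in control and 2.07 to 5.05 (median 4.21) in ACE, an unadjusted p of 0.0208 and an adjusted p of 0.229. Without replicate 4 its difference was -0.69 and its unadjusted p 0.0585. Olr1125 (chromosome 8) ran from 2.07 to 4.66 in control (median 3.43) and from 1.51 to 3.67 in ACE (median 2.99), with a difference of -0.68 ± 0.21 (SE). It lay at the edge of the rule, above the 20th percentile on 7 arrays. Olr825 (chromosome 4) ran from 4.26 to 6.38 in control (median 4.59) and from 3.49 to 5.92 in ACE (median 4.06), and differed by -0.62 ± 0.14 (SE). Olr1744 (chromosome 20) differed by -0.57 ± 0.12 (SE), from 3.04 to 4.92 (median 4.08) in control to 2.58 to 4.45 (median 3.38) in ACE. Olr728 (chromosome 3) differed by -0.51 ± 0.18 (SE), from 3.64 to 5.77 (median 4.13) to 2.68 to 5.75 (median 3.55), and its unadjusted p was 0.0665 without replicate 3 and 0.0756 without replicate 4. The groups overlapped for all 5, and for every one of the 247 members, as for nearly all probes tested (0.0126% did not overlap). The spots were well above background on 9 of 12 arrays for Olr1714, 7 for Olr825, 6 for Olr1744, 5 for Olr728 and 3 for Olr1125, so that these sizes rest in part on spots not well above background. With the normexp background all 5 differences were much smaller: -0.18 for Olr1714, -0.16 for Olr825, -0.07 for Olr728, -0.063 for Olr1744 and -0.033 for Olr1125. The unadjusted p was then 0.0777 for Olr728, 0.160 for Olr1744 and 0.384 for Olr1125. Olr1125 also had 0.0508 with the 75th percentile shift and 0.0528 with no scaling.

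Among the 10 members with the highest signal, 5 had an unadjusted limma p below 0.05, all of them lower in ACE, where 9.73% of all probes tested were lower. Olr1439 differed by -0.18 ± 0.03 (SE), with an unadjusted p of 0.00128 and an adjusted p of 0.143, and Olr567 by -0.21 ± 0.04 (SE), with 0.00142 and 0.143. Olr325 differed by -0.28 ± 0.08 (SE) and Olr3 by -0.16 ± 0.05 (SE). These 4 were lower in 6 of 6 pairs. Olr1l differed by -0.17 ± 0.06 (SE) and was lower in 5 of 6 pairs, and its unadjusted p rose above the threshold when replicate 1, 2, 3, 5 or 6 was left out (0.0532 to 0.0936). The other 5 had differences between -0.04 (Olr775) and 0.12 (Olr1684) and did not pass. Olr775 was lower with the 75th percentile shift (-0.10, unadjusted limma p of 0.0404) and differed by 0.0043 with no scaling. With replicate 3 or 4 left out, Olr1684 was higher at an unadjusted p of 0.0271 or 0.0478. With no scaling between arrays, the unadjusted p was 0.326 for Olr1439, 0.421 for Olr3, 0.364 for Olr1l and 0.0874 for Olr567. Olr1l also did not pass with a normexp background (0.0911), and with the pair as a random block neither Olr1l (0.103) nor Olr567 (0.0649) passed.

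At the threshold of the rule, the members just inside were Olr1700, Olr702 and Olr1125, with mean log2 signals of 3.01, 3.03 and 3.05 and 7 arrays above the percentile. The probes just outside, with 6 such arrays, were Olr1072 (3.71), Olr1280 (3.57) and Olr221 (3.53). Olr59 was not among the members: its probe was above the 20th percentile on 0 arrays and well above background on 0, with a mean log2 signal of 2.24.

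By position, 1201 olfactory receptor probes with an annotated place formed 51 clusters when neighbours up to 1 Mb apart were joined, and 36 clusters held members. Rat chromosomes 3 and 1 carried the most probes, 291 and 286, of which 48 and 65 were members. The largest cluster, chr3:68577916-74747920, held 219 probes and 29 members (13.2%), 10 of them well above background on all arrays. The cluster chr1:160073295-166548874 held 188 probes and 46 members (24.5%), among them every class I receptor on the array (126 probes), the receptor class first described in fish. Among the 16 clusters with at least 20 probes, the share of members ran from 8.33% in the cluster of Olr325 on chromosome 1 to 36.4% in that of Olr312, also on chromosome 1.

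**Figure D5:**
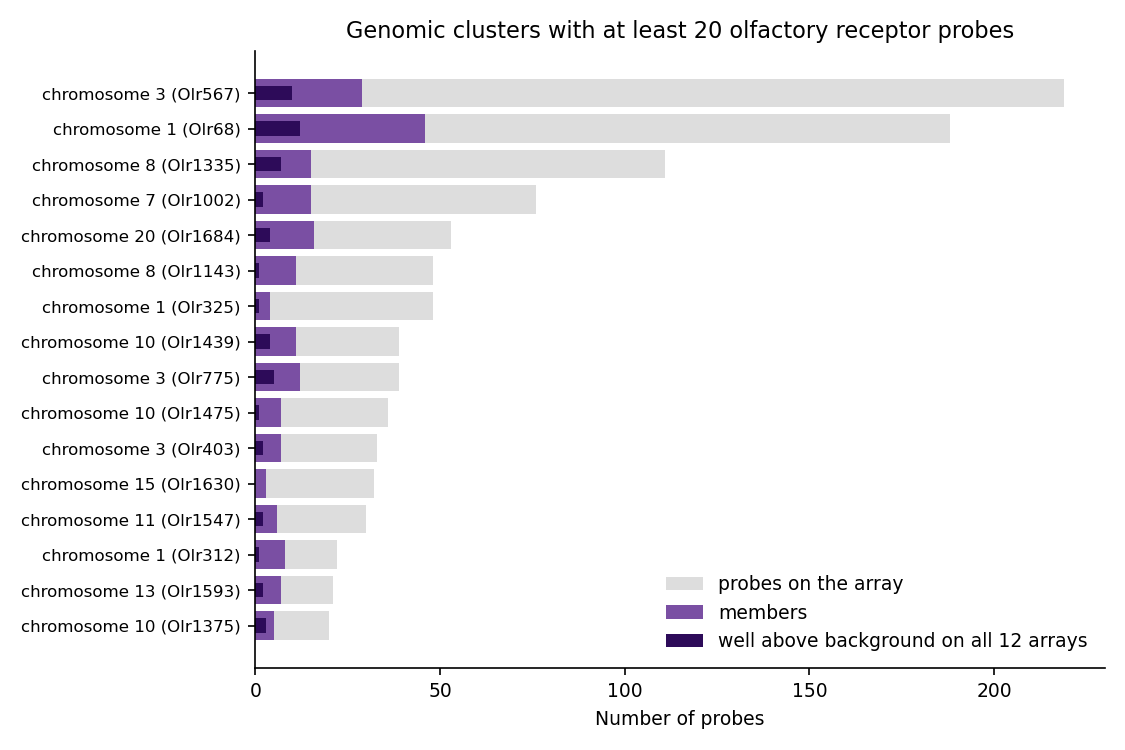
Number of olfactory receptor probes (horizontal axis) in each of the 16 genomic clusters with at least 20 probes, named by chromosome and by the probe with the highest signal, with the members and those well above background on all 12 arrays overlaid. Members came from every cluster shown, from 3 of 32 probes on chromosome 15 to 46 of 188 in the class I cluster on chromosome 1.

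Differences of the members were spread over the clusters. In the 16 clusters with at least 5 members, the median difference was below 0 in 14, and it ran from -0.43 in the Olr1143 cluster on chromosome 8 (11 members) to 0.04 in the Olr1475 cluster on chromosome 10 (7 members). In the class I cluster of chromosome 1, 40 of 46 members had a difference below 0, and 14 were lower at an unadjusted limma p below 0.05, against 52.2% and 9.73% of all probes tested. Olr237, in this cluster, had the lowest p of all members (0.000214, adjusted p 0.141), with a difference of -0.32 ± 0.04 (SE). The 32 class I members had a median difference of -0.19, with 9 lower at an unadjusted p below 0.05, and the 206 class II members had a median of -0.15, with 50 lower and 1 higher, where 9.73% of all probes were lower and 6.90% higher. The difference between the classes was not tested.

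The members with the highest signal in other clusters with at least 5 members ran from -0.29 for Olr1593 to 0.43 for Olr1475, which was higher in only 3 of 6 pairs and differed by 0.11 without replicate 6 and 0.27 without replicate 5. Olr68 (class I cluster, chromosome 1) differed by -0.13 ± 0.05 (SE), Olr1143 by -0.16 ± 0.05 (SE), Olr1593 (chromosome 13) by -0.29 ± 0.11 (SE) and Olr1347 (chromosome 9) by -0.11 ± 0.04 (SE), with unadjusted limma p-values of 0.0496, 0.0178, 0.0401 and 0.0385. Olr68 lost this threshold when any one of replicates 1 to 5 was left out (0.0595 to 0.124), Olr1143 without replicate 2 (0.0525), Olr1593 without replicate 1, 2, 4 or 5 (0.0792 to 0.105) and Olr1347 without replicate 1, 2, 3 or 4 (0.0762 to 0.101). Olr1395, Olr1002, Olr1335, Olr403, Olr1547, Olr1475 and Olr312 had differences between -0.22 and 0.43 and did not pass. Of these, Olr1547 (-0.17) passed without replicate 1 (-0.22, unadjusted limma p of 0.0274) or replicate 2 (-0.21, 0.0495). It also passed with the 75th percentile shift (-0.25, 0.0234) or a normexp background (-0.13, 0.0255), and Olr1002 passed with the 75th percentile shift (-0.13, 0.0423). Calls were lost as well: Olr68 did not pass with a normexp background (0.116), in the deposited table (0.0673) or with no scaling (0.368), Olr1593 with a normexp background (0.0669), and Olr1143 (0.145) and Olr1347 (0.300) with no scaling. With the pair as a random block, Olr68 (0.0861), Olr1593 (0.0613) and Olr1347 (0.322) did not pass.

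For 38 genes the array held more than 1 olfactory receptor probe. In 12 of them exactly 1 probe was a member, in 2 (Olr1366 and Olr875) both were, and in 24 none was. In 7 of the 12 genes with 1 member, the gene's probes had ACE minus control differences of both signs in the fit without a filter, where the probes that were no members were dim. The 3 probes of Olr1196 ranged from -0.90 to 1.36, and those of Olr1411 had -0.29 and 0.73. The probes of Olr1366 differed by -0.24 and -0.0073 between ACE and control.

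The proteins that carry the receptor signal in olfactory neurons were described from a list of 22 genes, of which 21 had a probe and 14 had a probe that passed the filter. Detection differed between them. Omp, the olfactory marker protein, and Stoml3, a stomatin of the olfactory cilia, were well above background on 0 arrays, and the probes of Cnga2 and Cnga4, subunits of the olfactory cyclic nucleotide-gated channel, were so on 4 arrays each. Cngb1, a further subunit of that channel (mean log2 signal 6.09), Gucy2d, a guanylyl cyclase of a subset of olfactory neurons (7.23), Slc24a4, a sodium-calcium exchanger (7.86), and Lhx2, a transcription factor (6.25), were well above background on all 12 arrays. Over the 8 of 9 olfactory neuron markers with a probe, the summed log2 level ranged from 8.80 to 9.55 in control and from 8.63 to 9.18 in ACE. Gnal, the alpha subunit of the G protein that receptors couple to, Gng13, a gamma subunit, and Gnb1, a beta subunit, were well above background on all 12 arrays, but brain tissue also uses these genes.

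Of the 17 probes tested from the list, 4 had an unadjusted limma p below 0.05, 2 lower and 2 higher (11.8% lower against the 9.73% of all probes), 0 passed the adjusted test, and their median difference was -0.03. Ric8b, which assists the folding of Gnal, had signals of 4.26 to 4.90 (median 4.61) in control and 4.65 to 4.95 (median 4.83) in ACE. It was higher in 6 of 6 pairs, by 0.22 ± 0.06 (SE), with an unadjusted p of 0.00804. One probe of Gnal was lower in 6 of 6 pairs (-0.12 ± 0.04, SE, unadjusted p = 0.0176 in limma), while the other differed by -0.08 ± 0.12 (SE). Gucy2d differed by -0.11 ± 0.04 (SE) and 1 of the 2 Gng13 probes by 0.16 ± 0.06 (SE). Without replicate 2, 1 of the 17 probes, Ric8b, had an unadjusted p below 0.05. Gucy2d also lost the threshold without replicate 3, 4 or 5 (0.0599 to 0.0661) and Gng13 without replicate 1, 5 or 6 (0.106 to 0.128), with the 75th percentile shift (0.181) and with a normexp background (0.0758). Ric8b differed by 0.08 (unadjusted limma p of 0.194) with the 75th percentile shift, and with no scaling none of the 17 probes passed. Rtp1, which helps receptors to reach the cell surface, had a difference of -0.92 ± 0.71 (SE), set by a control signal of 8.15 in replicate 4 against 3.57 to 4.39 on the other control arrays.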

How the data were processed

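RNA of 12 cultures was hybridised to 1-colour Agilent rat arrays, 1 array a culture, and scanned. The deposited scanner files hold a processed signal intensity per spot, background-subtracted by Feature Extraction (version 11.0.1.1 for replicate 1 and 11.5.1.1 for the others), and the deposited value table holds log2 values that the authors normalised. Here control spots and outlier spots were left out, log2 processed signals were quantile-normalised, and spots of a probe were then averaged. Probes above the 20th percentile on at least 7 arrays with at least 4 complete pairs were tested with limma 3.58.1 in R 4.3.3, with the replicate number as a block and Benjamini-Hochberg adjustment over all 23796 probes, and with the exact signed-rank test. The numbers pair the samples: each marks 1 culture lot and 1 slide, and deviations of same-numbered arrays correlated at 0.449 to 0.912. Lot, slide and scan day cannot be told apart in this correlation. The number of arrays limits the precision. Named members were the 10 with the highest mean signal, up to 5 a direction with the largest difference among those with an unadjusted p below 0.05 and 6 of 6 pairs alike, the highest of each cluster with at least 5 members, the transduction genes, Olr1, Olr59 and those at the threshold; Olr237, Olr1247, Olr1248 and the genes with several probes were chosen after their values were seen. Members and gene lists were chosen with earlier results of these data known. Gene names came from the array annotation and 1207 olfactory receptor probes matched RefSeq (GRCr8), used for names. The fit was tested on simulated data. Alternatives were other scalings, filters, blocks and left-out replicates.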

Additional observations from a re-analysis of the deposited data

Results flagged for a closer look

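Single arrays that stood far from the other 5 of their group were found in 18 of 151 groups of 6 values examined (11.9%), where chance gives about 1 in 20. Most were replicate 1 arrays. On these, 604 olfactory receptor probes in control (others 133 to 305) and 552 in ACE (others 124 to 261) were well above background, and the median member signal in log2 was 5.52 in control (others 4.45 to 4.72) and 5.31 in ACE (others 4.18 to 4.59). Of all gene spots, 91.03% in control and 90.37% in ACE were well above background on the replicate 1 arrays, against 75.36% to 84.69% on the other arrays. Olr775 had a log2 signal of 9.22 in control and 9.16 in ACE, and Olr825 of 6.38 and 5.92. Olr325 reached 9.86 on the ACE array, and Lhx2, a transcription factor, was low on the control array at 5.28 (others 6.12 to 6.60). The earlier software version of these 2 arrays, their slide, their scan day and their culture lot all moved with these values. These cannot be told apart, and the part of each was not tested.

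The other single values were spread over replicates. On control arrays, 1 Gnal probe had a log2 signal of 9.08 in replicate 6 and Rtp1 of 8.15 in replicate 4. Among ACE minus control pair differences, Olr1700 had -1.56 in replicate 5 and Olr403 had -0.83 in replicate 3. Ldb1, a cofactor of LIM factors, had 0.20 in replicate 3, Slc24a4, a sodium-calcium exchanger, 0.80 in replicate 4, Rtp1 -4.92 in replicate 4, and Ebf1, a transcription factor, -1.67 in replicate 5.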

How the results depend on the processing

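No member passed an adjusted p of 0.05 in limma in any setting run. The count of 62 members with an unadjusted p below 0.05 was 0 with no replicate block and 62 with the replicate block as a random effect, and 33 of 72, all lower, when only probes well above background on all 12 arrays were fitted (10.9% of all such probes were lower). The median difference of -0.15 was -0.25 with the 75th percentile shift, -0.044 with a normexp background and -0.052 with no filter, and it was negative in 17 of 17 settings. Of 29 named olfactory receptor probes, 15 had an unadjusted p below 0.05, against 7 with no scaling and 0 with no replicate block. Part of the 29 were named because they had such a p, so the 15 are no result about the named probes. Over all probes tested, 16.6% had such a p in the main fit. Of the transduction probes, 4 did, against 0 with no scaling, 0 with no replicate block and 2 with a random block. The signed-rank count of 40 was 64 with the 75th percentile shift, 21 with the filter on all 12 arrays and 2 for an exact rank-sum test without the pairing. Over all probes the signed-rank share was 11.6% in the main setting and 12.3% with the filter on all 12 arrays. That share was not computed for the 75th percentile shift or the rank-sum test, so those counts have no background beside them. The rule passed 146 probes with the percentile taken before normalisation, 10 with the 50th percentile and 135 when all 12 arrays were required, and 202 probes in place of 72 had a positive and significant signal on every array. Leaving out 1 replicate gave 50 to 65 members (6.93% to 10.8% of all probes were lower), 11 to 14 named probes, 1 to 4 transduction probes, medians of -0.16 to -0.13, 235 to 255 probes passing the rule and 72 to 85 well above background. The signed-rank test was not run with a replicate left out, since 5 pairs cannot reach 0.05. Ebf1 had a mean difference of -0.10 over the 6 pairs, with 1 pair lower and 5 higher in ACE. With 1 replicate left out, this mean was -0.22 to 0.21, and its sign reversed without replicate 5 (0.21, unadjusted limma p of 0.0387). For single probes, whose threshold was an unadjusted limma p of 0.05, 459 values stayed on their side, as did Gnb1 with no scaling (0.07, from -0.03), 80 lost the threshold, and 11 gained it, as did Ebf1 without replicate 5. No scaling, the pairs of 1 scan day and the removal of replicate 1 from the filter were chosen after seeing the data. The causes were not tested. Signal over background limits the dim members most.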

Other observations

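The vomeronasal receptor families, which detect pheromones and related cues, gave differing values in the same fit. Of 24 Vom1r probes tested, 22 had an ACE minus control difference below 0 and 9 were lower at an unadjusted limma p below 0.05, with a median of -0.22. Of 26 Vom2r probes, 16 had a difference below 0, 5 were lower and 1 higher, and the median was -0.03. Over all probes tested, 52.2% had a difference below 0, 9.73% were lower and 6.90% higher by the same rule. The difference between the families was not tested.

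In 20 members at least 1 pair differed by more than 3 in log2, with 13 such pair values lower and 11 higher in ACE. The share of all probes with such a pair is not given here. By array, 0% to 1.62% of the members had a signal there that stood 3 in log2 above the other arrays. For all probes tested this was 0.0294% to 0.202%, with no matching for signal. Olr1646 had a log2 signal of 8.79 in control against 2.94 in ACE in replicate 5 and of 8.38 against 3.26 in replicate 4, with 2.02 to 4.26 on the other arrays. Olr428 had 8.85 against 3.23 in replicate 5 and 8.89 against 3.53 in replicate 6, with 2.89 to 4.50 on the others. In the other direction, Olr1351 had 3.03 in control against 8.75 in ACE in replicate 4, and Olr217 had 3.47 against 8.87 in replicate 6.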
